A study of Mus musculus with 4 samples.

Results

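The genes described here are Runx1, Runx2, Runx3, Cbfb and Sp7, taken by name as 5 of the 31053 genes of the count matrix. All 5 had UMIs (unique molecular identifiers, each standing for 1 captured transcript) in the cells kept, with 18933 for Runx1, 11060 for Runx2, 9484 for Runx3, 9096 for Cbfb and 3053 for Sp7. The study made 1 single-cell library from 2 pooled tibiae of 1 male mouse at postnatal day 6 (P6), and its 4 sequencing entries were counted together. The mouse carried Col10a1Cre and the Rosa26-Tdtomato reporter together with Irx3 +/Δ and Irx5 +/-. Per the study's methods 1 Irx3 allele is deleted in the HC lineage by the Cre, whereas Irx5 is heterozygous in all cells, so HC origin and the Irx3 deletion cannot be told apart in comparisons of HC-derived with other cells. Col10a1Cre acts in hypertrophic chondrocytes (HCs), and a cell with more than 14 UMIs of WPRE, a sequence carried by the reporter transcript, counted as HC-derived. All values come from 1 animal and were not replicated, and differences between cells were therefore not tested.

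RUNX proteins bind DNA through their Runt domain, and CBFB is the shared non-DNA-binding partner that strengthens this binding. RUNX2 is the master regulator of osteoblast formation and also drives chondrocyte hypertrophy, and SP7 (Osterix) is a zinc finger factor needed after RUNX2 for bone to form. RUNX1 is required for definitive haematopoiesis and is also made in skeletal progenitors, and RUNX3 acts in T and NK cells and, with RUNX2, in chondrocyte maturation.

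Each RUNX gene has a distal and a proximal promoter, and the distal windows are shown because they share a RUNX hexamer pair. The windows are from RefSeq and run from 250 bases before to 50 bases after the annotated start. Capitals mark TGTGGT or its reverse complement ACCACA.
Runx1 (GRCm38.p6 chr16:92826025-92826324, minus strand): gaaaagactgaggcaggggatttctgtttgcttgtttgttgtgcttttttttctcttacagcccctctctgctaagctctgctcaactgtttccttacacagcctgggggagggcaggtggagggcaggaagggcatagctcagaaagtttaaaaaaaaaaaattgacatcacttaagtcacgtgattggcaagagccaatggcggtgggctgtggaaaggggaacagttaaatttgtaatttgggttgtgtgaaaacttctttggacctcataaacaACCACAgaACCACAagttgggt
Runx2 (GRCm38.p6 chr17:44814578-44814877, minus strand): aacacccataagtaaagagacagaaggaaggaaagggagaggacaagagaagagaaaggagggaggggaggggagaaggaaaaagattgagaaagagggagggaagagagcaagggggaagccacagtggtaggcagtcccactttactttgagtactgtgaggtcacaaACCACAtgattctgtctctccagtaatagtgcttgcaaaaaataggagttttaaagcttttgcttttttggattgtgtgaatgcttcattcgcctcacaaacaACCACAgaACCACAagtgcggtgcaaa
Runx3 (GRCm38.p6 chr4:135120395-135120694, plus strand): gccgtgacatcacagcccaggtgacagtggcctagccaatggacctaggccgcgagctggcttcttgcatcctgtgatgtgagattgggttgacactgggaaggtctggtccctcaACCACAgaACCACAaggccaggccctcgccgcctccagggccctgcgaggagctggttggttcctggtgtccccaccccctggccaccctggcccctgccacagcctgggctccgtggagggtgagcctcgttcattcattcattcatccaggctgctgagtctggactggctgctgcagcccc

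The longest run shared by these 3 windows was 18 bases, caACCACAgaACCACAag, with the 2 hexamers 2 bases apart. Of 32851 windows of the same length, 4 held this run on either strand: those of Runx1, Runx2 and Runx3, and that of Gm16225, whose window lies opposite to and overlaps that of Runx3. At least 1 hexamer stood in 16.8% of all windows, at least 2 in 1.81% and at least 3 in 0.183%. The run lay downstream of the annotated start in Runx1 and Runx2 and upstream of it in Runx3. The second windows of Runx1 (GRCm38.p6 chr16:92697280-92697579) and Runx3 (chr4:135152295-135152594) and the window of Cbfb (chr8:105170424-105170723) held no match. Sp7 was not among the windows. A match is a description of letters and not a shown binding site.

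In GENCODE M21 on GRCm38, Runx1 (ENSMUSG00000022952) spans chr16:92601466-92826149 on the minus strand, Runx2 (ENSMUSG00000039153) chr17:44495987-44814797 on the minus strand and Runx3 (ENSMUSG00000070691) chr4:135120652-135177990 on the plus strand. Cbfb (ENSMUSG00000031885) spans chr8:105170674-105217989 on the plus strand and Sp7 (ENSMUSG00000060284) chr15:102356606-102367182 on the minus strand. No coding gene overlaps a member on its own strand. Supt3 and Runx2os1, Runx2os2 and Runx2os3, annotated as antisense, overlap Runx2 on the opposite strand, Gm26626 overlaps Runx1 and Gm16224 overlaps Runx3. Supt3 and the 3 Runx2 antisense genes had 3492, 465, 5 and 0 UMIs in the cells kept, against 11060 for Runx2. Counts from transcript 3′ ends do not separate the products of the distal and proximal promoters.

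The 8256 cells kept had a median of 13957.5 UMIs and formed 30 clusters. Marker lists gave names to 23 classes with 7790 cells, written as "-like" classes, and 466 cells in 4 clusters stayed unnamed. The named cells comprised 1935 chondrogenic, 1179 osteogenic (marrow stromal progenitor-like cells included), 388 other stromal, 740 endothelial, 654 erythroid, 2130 myeloid and 764 lymphoid cells. Some names rest on weaker ground. The HC-like cluster was led by Col10a1 but had 2 genes of the monocyte list, F13a1 and Fn1, among its top 10. The immature osteoblast-like cluster (leading genes Tnc, Wif1, Mmp13 and Mmp9) had 2 genes of the HC list and none of its own there. The macrophage-like cluster held 3 macrophage and 3 osteoclast genes there. Both maturing chondrocyte-like clusters had 1 gene of the resting list and 0 of their own there, and the monocyte-like cluster 1 late neutrophil gene and 0 of its own. The resting name went to a cluster of 119 cells (leading genes Penk, Tnni2, Sfrp5 and Efemp1). With 3000 variable genes it went to 548 cells and at resolution 0.6 to 591 cells. Values of resting chondrocyte-like cells below hold for the cluster of 119 cells only. Levels are UMIs per 1e6 UMIs of a class (CPM) with exact Poisson 95% intervals, which cover counting error only. As UMI counts come from transcript ends and the 5 genes differ in length and ends, each gene is compared between classes and not with another gene.

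Runx1 was found in every class, highest in stroma of the marrow. It stood at 561 CPM (interval 535 to 588) in 250 marrow stromal progenitor-like cells, at 377 CPM (341 to 416) in 100 smooth muscle or pericyte-like cells and at 315 CPM (302 to 328) in 546 immature osteoblast-like cells. Mature osteoblast-like cells followed at 202 CPM (192 to 212). Across the other filters and clusterings tried, the marrow stromal progenitor-like level ran from 361 to 908 CPM. The cells under this name differed, from 63 cells with at most 20% mitochondrial UMIs to 747 cells at resolution 0.6. At resolution 0.6 and with 3000 variable genes (709 cells) no cluster took the immature osteoblast-like name. In the growth plate Runx1 ran from 97.1 CPM in proliferating to 139 CPM in HC-like cells. The maturing class, at 105 CPM, joined a cluster of 623 cells at 77.5 CPM (72.9 to 82.4) and one of 410 cells at 155 CPM (146 to 164).

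Among blood cells, Runx1 was highest in plasmacytoid dendritic-like cells, at 341 CPM (318 to 366), then in monocyte-like cells at 233 CPM and basophil or mast-like cells at 195 CPM. The B lineage stood at 175 CPM in pro-B or pre-B-like and 111 CPM in immature B-like cells, and these intervals (163 to 186 and 98.2 to 124) did not overlap. The lowest values were 40.4 CPM in late erythroblast-like and 36.6 CPM in endothelial-like cells. After each cell was thinned to 5000 UMIs, 88.1% of 244 marrow stromal progenitor-like cells had a Runx1 UMI (96.4% of 250 unthinned) against 12.3% of 661 endothelial-like cells (25.0% of 740 unthinned), with median depths of 10601.5 and 9092 UMIs. Among the 23 neighbouring pairs in the order of levels (23 classes and the unnamed cells), intervals overlapped in 16 for Runx1, 20 for Runx2, 18 for Runx3, 21 for Cbfb and 21 for Sp7. Most neighbours thus had overlapping intervals, which does not show that their levels were equal or differed only by counting error.

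Runx2 was highest in bone-forming cells and stayed high along the growth plate. Immature osteoblast-like cells had 212 CPM (202 to 224), pre-HC-like cells 145 CPM (138 to 151), mature osteoblast-like cells 141 CPM (132 to 149), marrow stromal progenitor-like cells 132 CPM, maturing chondrocyte-like cells 129 CPM and proliferating chondrocyte-like cells 126 CPM. Resting chondrocyte-like cells (58.6 CPM, 46.2 to 73.2) and HC-like cells (89.8 CPM, 80.1 to 100.3) were lower than the chondrocytes between them. The class called fibroblast or tendon-like joined a Tnmd-led cluster at 21.7 CPM and an Aspn-led cluster at 167 CPM, the second highest of all 30 clusters.

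In blood, 3 classes held Runx2 at skeletal levels or near them. Plasmacytoid dendritic-like cells had 124 CPM (110 to 139), basophil or mast-like cells 91.3 CPM (80.5 to 103) and the 30 T or NK-like cells 64.7 CPM (37.0 to 105, 16 UMIs). Late erythroblast-like cells, which should lack Runx2, had 3.01 CPM, and the B-lineage classes 3.12 and 4.56 CPM. After thinning, 40.9% of 171 plasmacytoid dendritic-like and 34.2% of 149 basophil or mast-like cells had a Runx2 UMI against 1.92% of 468 late erythroblast-like cells, with median depths of 11676, 17188 and 12355.5 UMIs (57.5%, 71.1% and 3.85% unthinned).

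Bone RNA was also present in blood classes. Col1a1, the main bone collagen gene, stood at 1378 CPM in the plasmacytoid dendritic-like, 234 CPM in the basophil or mast-like and 223 CPM in the late erythroblast-like class. Col2a1, a cartilage collagen gene, stood at 4704 CPM in the T or NK-like, 849 CPM in the plasmacytoid dendritic-like and 379 CPM in the basophil or mast-like class. The part of cartilage RNA in the 16 Runx2 UMIs of the T or NK-like class was not tested. In the 79 plasmacytoid dendritic-like cells with under 10 collagen UMIs, Runx2 was at 133 CPM (109 to 160) and Sp7 had 1 UMI, against 10.9 CPM of Sp7 in the whole class. In the 48 such basophil or mast-like cells Runx2 was at 89.2 CPM and Sp7 had 0 UMIs. Without the cells that Scrublet marked as doublets, Runx2 stood at 125 CPM in 161 plasmacytoid dendritic-like and 91.5 CPM in 147 basophil or mast-like cells, and Sp7 in the former at 5.38 CPM (10 UMIs in 5 cells, against 25 UMIs before). Across the other filters and clusterings, Sp7 in plasmacytoid dendritic-like cells ran from 1.23 to 12.7 CPM. The part of bone RNA in the Sp7 counts of the plasmacytoid dendritic-like class was not tested.

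Runx3 had its own pattern, with peaks in T or NK-like and plasmacytoid dendritic-like cells and in the middle of the growth plate. T or NK-like cells had 364 CPM (293 to 447, 90 UMIs in 30 cells) and plasmacytoid dendritic-like cells 272 CPM (251 to 294). Basophil or mast-like cells had 116 CPM (103 to 129), but pro-B or pre-B-like cells 27.1 CPM and immature B-like cells 25.8 CPM. Among chondrocytes it was 29.7 CPM in resting, 166 CPM (155 to 178) in proliferating, 113 CPM (108 to 117) in maturing, 150 CPM (143 to 156) in pre-HC-like and 43.5 CPM (36.8 to 51.0) in HC-like cells. In this clustering the resting (119 cells) and HC-like ends were thus low and the 3 classes between them high, with no overlap of the intervals. Across the other filters and clusterings tried, the maturing level ran from 105 to 145 CPM and the pre-HC-like level from 127 to 143 CPM. Osteoblast and marrow stromal classes stayed between 25.2 and 36.9 CPM, and late erythroblast-like and endothelial-like cells at 4.28 and 4.85 CPM. After thinning, 53.4% of 163 proliferating and 52.9% of 516 pre-HC-like cells had a Runx3 UMI against 1.92% of the late erythroblast-like cells, with median depths of 29394, 28069 and 12355.5 UMIs (89.0%, 93.8% and 4.49% unthinned). Of the lymphoid genes tied to RUNX3, Eomes, a T-box factor of cytotoxic cells, was highest in the T or NK-like class at 97.1 CPM. Cd8b1, Itgae, Tbx21, Prf1 and Ifng were also highest there, at no more than 16.2 CPM in 30 cells. The others were highest elsewhere: Cd8a in plasmacytoid dendritic-like (2.19 CPM), Cd4 in macrophage-like (22.5 CPM) and Zbtb7b in neutrophil myelocyte-like cells (46.5 CPM).

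At a finer clustering (resolution 1.5) 169 osteoclast-like and 257 macrophage-like cells formed separate clusters. The main clustering had 1 macrophage-like cluster of 410 cells, and the finer clusters are not a split of that cluster alone. Runx3 was at 38.0 CPM (32.4 to 44.2) in the former and 101 CPM (91.0 to 112) in the latter, and Runx1 at 68.6 and 128 CPM. Acp5, an osteoclast phosphatase, was at 3080 and 396 CPM, and C1qa, a macrophage complement gene, at 246 and 2650 CPM. Cbfb, at 71.6 and 68.6 CPM, had overlapping intervals.

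Cbfb was low in erythroid cells and present throughout the other classes. Outside the erythroid cells it stayed between 48.8 CPM in smooth muscle or pericyte-like and 125 CPM (112 to 139) in immature B-like cells. Endothelial-like cells, low in all 3 RUNX genes, had 87.0 CPM (81.0 to 93.3). Early erythroid-like cells had 16.2 CPM (13.1 to 19.7) and late erythroblast-like cells 1.74 CPM (0.87 to 3.12, 11 UMIs in 468 cells), whereas Runx1 was still at 40.4 CPM in the latter.

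Sp7 was the most restricted. Mature osteoblast-like cells had the most, 102 CPM (95 to 109), followed by immature osteoblast-like cells at 67.9 CPM (61.9 to 74.3), and these intervals did not overlap. Pre-HC-like cells had 39.2 CPM (36.1 to 42.6), marrow stromal progenitor-like cells 37.5 CPM, HC-like cells 29.9 CPM, maturing chondrocyte-like cells 26.2 CPM and proliferating chondrocyte-like cells 22.9 CPM. Resting chondrocyte-like cells had 4.56 CPM (1.67 to 9.93). The 2 maturing clusters differed, with 32.3 CPM in the one led by 2610528A11Rik and Cox4i2 and 15.4 CPM in the one led by Krt16 and Il11. Outside the skeletal and stromal classes no class but the plasmacytoid dendritic-like one passed 2.70 CPM, and immature B-like cells had 0 UMIs in 332 cells, which allows up to 1.14 CPM. The cells that took the immature osteoblast-like name changed with the mitochondrial filter. At no more than 5% the name went to a cluster of 132 cells with 9.80 CPM of Sp7, 81.9 CPM of Runx2 and 153 CPM of Runx1. No cluster took the fibroblast or tendon-like name in that setting. In the main clustering the fibroblast or tendon-like class had 13.3 CPM of Sp7, 75.5 CPM of Runx2 and 177 CPM of Runx1. Whether the 132 cells are of the same kind as the main immature class was not tested. After thinning, 35.5% of 383 mature and 25.3% of 533 immature osteoblast-like cells had an Sp7 UMI, 15.5% of 516 pre-HC-like cells and 0.641% of 468 late erythroblast-like cells, with median depths of 18829, 11152.5, 28069 and 12355.5 UMIs (78.1%, 47.3%, 60.2% and 1.5% unthinned).

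**Figure D1:**
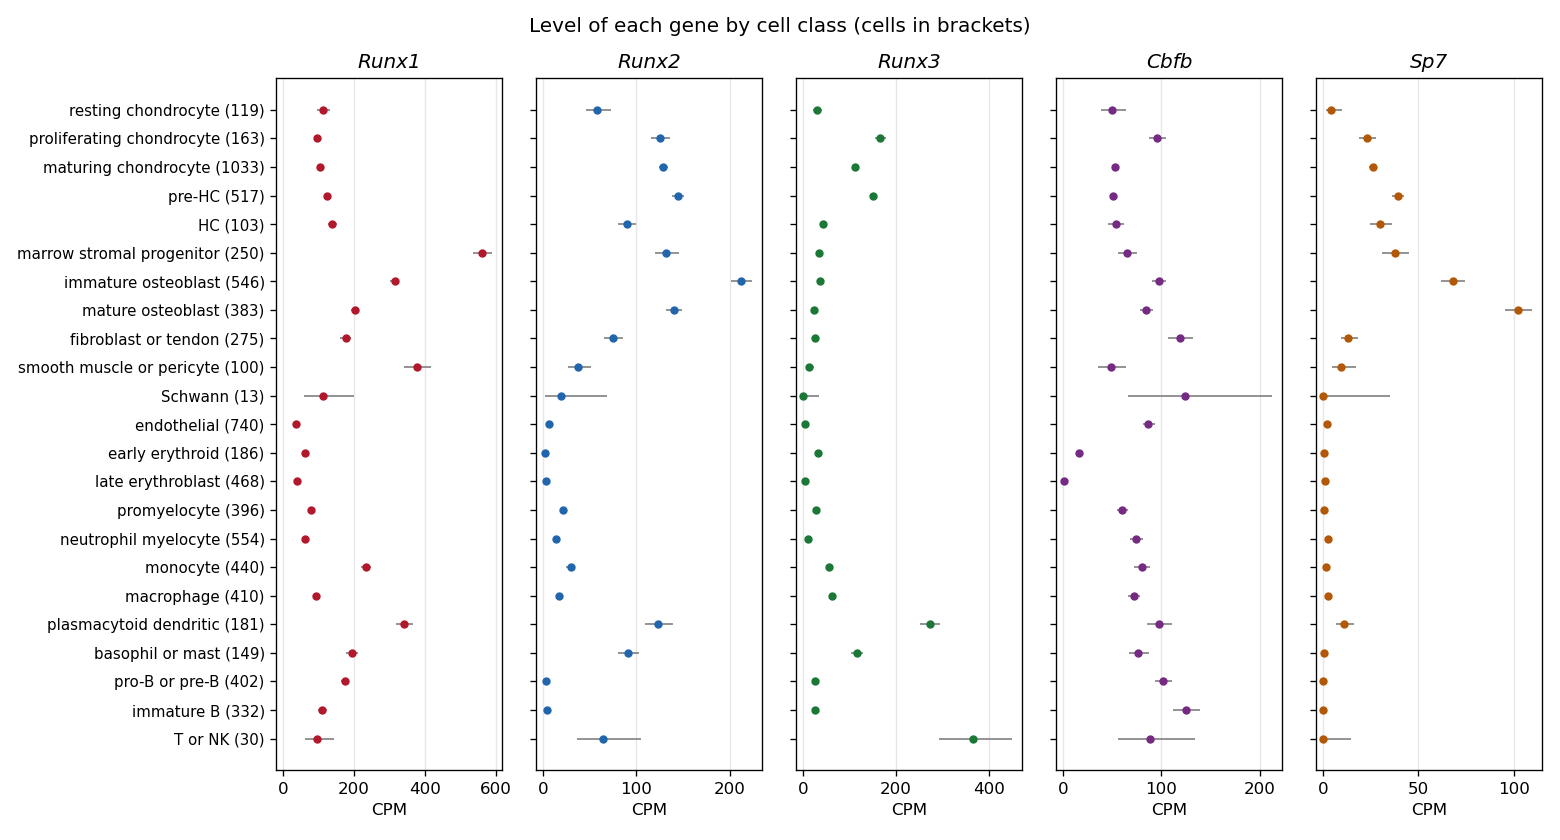
CPM of Runx1, Runx2, Runx3, Cbfb and Sp7 (x axes, each with its own scale) in 23 cell classes, with the number of cells in brackets; bars are exact Poisson 95% intervals, counting error only. Runx1 peaks at 561 CPM in marrow stromal progenitor-like cells, Runx3 at 364 CPM in T or NK-like cells and in the middle chondrocyte classes, and Sp7 at 102 CPM in mature osteoblast-like cells, while Cbfb is low only in the erythroid classes.

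The makeup of the RUNX transcripts changed along the skeletal lineages. In chondrogenic cells the UMIs of the 3 genes were split almost evenly, with 31.0% Runx1, 35.3% Runx2 and 33.6% Runx3 of 16557. In osteogenic cells they were 60.8% Runx1, 33.0% Runx2 and 6.22% Runx3 of 9127, so the Runx2 share was close and the Runx1 and Runx3 shares differed. Such shares also reflect how well each transcript is captured, and only their shift between classes is read.

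Within the growth plate, the Runx3 share was 14.7% in resting, 42.7% in proliferating, 32.4% in maturing, 35.8% in pre-HC-like and 15.9% in HC-like cells. The Runx2 share moved less, from 28.9% to 37.2%, and the Runx1 share was above 50% at both ends, at 56.4% and 51.1%. In pro-B or pre-B-like cells 85.3% of the RUNX UMIs were Runx1 and 1.5% Runx2, in plasmacytoid dendritic-like cells 46.3% Runx1, 16.8% Runx2 and 36.9% Runx3, and in T or NK-like cells 69.2% Runx3.

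**Figure D2:**
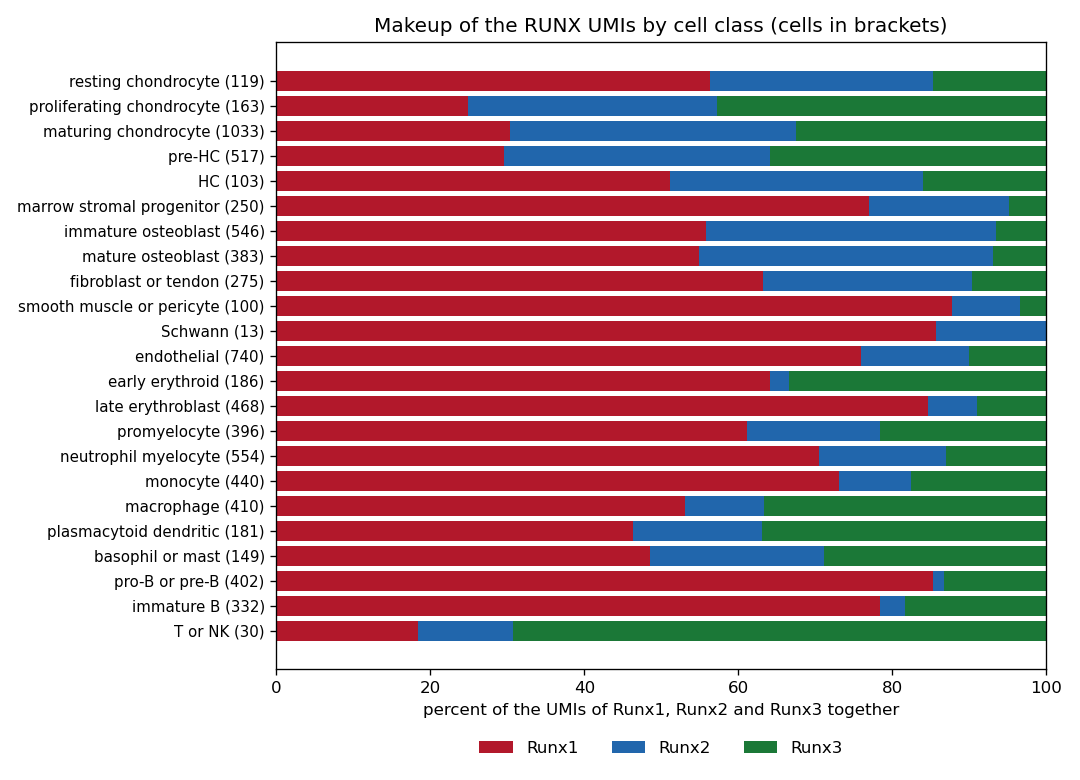
Share of Runx1 (red), Runx2 (blue) and Runx3 (green) in their summed UMIs (x axis, percent) by cell class, with the number of cells in brackets. Runx3 takes 42.7% in proliferating chondrocyte-like and 69.2% in T or NK-like cells but 6.9% in mature osteoblast-like cells.

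The first comparison set all osteogenic against all chondrogenic cells. Runx1 was at 307 against 113 CPM (log2 ratio 1.43, interval 1.38 to 1.48), Sp7 at 77.8 against 29.8 CPM (1.36, 1.25 to 1.46) and Runx3 at 31.4 against 123 CPM (-1.93, -2.05 to -1.81). Cbfb, at 86.3 against 56.8 CPM (0.60, 0.51 to 0.68), and Runx2, at 167 against 129 CPM (0.37, 0.31 to 0.43), lay within 2-fold. So 2 of 5 genes were at least 2-fold higher, against 18% of the 6066 genes with at least 20 CPM on either side, and 1 was at least 2-fold lower, against 9.73%. The median log2 ratio of all these genes was 0.19. With at most 5% mitochondrial UMIs the Runx2 ratio was 0.10, and the osteogenic pool then held the cluster of 132 cells described above.

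The lists of genes that work with or against RUNX2 were all chosen with earlier results known. Over all genes 18% were at least 2-fold higher and 9.73% lower in this comparison. The counts of these short lists are not read as a shift of a list. Of the RUNX2 antagonists, 2 of 4 measured were at least 2-fold higher in osteogenic cells and 2 lower. Twist1, which blocks RUNX2 DNA binding, was at 149 against 6.15 CPM, and Sox9, the chondrocyte master factor, at 109 against 1042 CPM. Of 6 measured genes of the corepressor list, 2 were higher and none lower: Aes at 213 against 10.3 CPM and Tle2 at 48.8 against 5.53 CPM. Aes is counted by its place on the list, and its role as a corepressor was not tested. Of the osteogenic factors reported here, Prrx1 (211 against 7.82 CPM) was higher, and Dlx5 (35.7 against 24.0 CPM) and Mef2c (290 against 278 CPM) lay within 2-fold. None of 10 coactivators, such as Yap1 and Cebpb, and neither of the 2 measured other SP genes, Sp1 and Sp3, passed 2-fold, and 1 of 5 ubiquitin ligases did (Fbxw7, 39.4 against 17.4 CPM).

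Some genes of the RUNX1 blood list were also found in the osteogenic pool, which includes marrow stromal progenitor-like cells. All 4 of the 21 list genes that were measured here were at least 2-fold higher in osteogenic cells, against 18% of all genes. Cebpa was at 23.1 against 1.32 CPM, Il3ra at 24.6 against 4.34 CPM, Ebf1 at 301 against 75.3 CPM and Fli1 at 21.2 against 7.20 CPM. Cebpa, Il3ra and Fli1 reached 20 CPM on the osteogenic side only, so this count is not read as a result. Cebpa was highest in marrow stromal progenitor-like cells, at 74.7 CPM. None of the 9 lymphoid genes tied to RUNX3 reached 20 CPM. Of 18 measured skeletal targets 13 were higher and 3 lower (Col10a1, Ihh and Fgfr3), but 13 of the 18 were also markers that named the classes. The 5 that were not, Ibsp, Alpl, Col5a1, Fgfr2 and Tnfsf11, were all at least 2-fold higher. Such genes could also enter the count through the osteogenic side alone.

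Mature were next compared with immature osteoblast-like cells (clusters 18 and 5). Sp7 was higher in mature cells, at 102 against 67.9 CPM (log2 ratio 0.58, 0.42 to 0.74). Runx1 was at 202 against 315 CPM (-0.64, -0.73 to -0.54), Runx2 at 141 against 212 CPM (-0.59, -0.70 to -0.48) and Runx3 at 25.2 against 36.9 CPM (-0.53). Cbfb was at 84.7 against 97.4 CPM (-0.20). None of the 5 passed 2-fold, against 4.91% of 6089 genes higher and 16.8% lower. The median log2 ratio of all genes was -0.45, so Runx1, Runx2 and Runx3 lay within 0.2 of it and Sp7 well above. With at most 5% mitochondrial UMIs the immature name went to the cluster of 132 cells. Runx1 was then at 205 CPM in mature against 153 CPM and Runx2 at 140.4 against 81.9 CPM, the other direction for both. As those 132 cells may be of another kind, this is not read as a turn within the same cells.

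The same lists were looked up between mature and immature cells, where 16.8% of all genes were at least 2-fold lower and 4.91% higher. The counts of these short lists are again not read as a shift of a list. Of 7 measured corepressors 4 were at least 2-fold lower, among them Tle2 (9.57 against 69.3 CPM) and Tle1 (11.1 against 37.5 CPM). Hey1, a Notch target and RUNX2 antagonist, was at 9.57 against 60.1 CPM. It was the 1 of 4 measured antagonists past 2-fold, and Twist1 was at 154 and 153 CPM. Of 10 coactivators 1 was lower (Ets1, 23.5 against 96.7 CPM), and none of 5 ligases or 2 other SP genes passed 2-fold. Of 7 measured osteogenic factors 5 were lower, such as Msx1 (4.60 against 24.5 CPM) and Prrx1 (121 against 280 CPM), and 1 was higher (Mef2c, 446 against 200.3 CPM, named after its value was seen). Of 16 measured skeletal targets 8 were higher and 5 lower. Among them Bglap, which encodes osteocalcin and helped to name these classes, was at 11072 against 794 CPM, and Tnfsf11, the gene of the osteoclast cytokine RANKL, at 9.82 against 132 CPM. Only 5 of the 16 targets were no class markers, of which 2 were higher and 3 lower. Reads of Bglap and its near copies can be split between them by counting.

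The windows of 2 targets that differ between the cell states above are shown with the same capitals. Each held 1 match. The 17 skeletal targets with a window had 24 windows, of which 4 held a match (Bglap, Dmp1, Mmp13 and Spp1), a share near the 16.8% of all windows.
Bglap (GRCm38.p6 chr3:88384417-88384716, minus strand): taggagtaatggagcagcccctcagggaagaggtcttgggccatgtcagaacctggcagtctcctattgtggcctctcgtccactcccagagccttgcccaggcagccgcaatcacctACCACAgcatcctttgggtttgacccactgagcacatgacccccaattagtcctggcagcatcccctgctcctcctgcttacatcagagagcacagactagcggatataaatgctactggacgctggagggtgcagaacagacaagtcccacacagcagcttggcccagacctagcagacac
Mmp13 (GRCm38.p6 chr9:7272264-7272563, plus strand): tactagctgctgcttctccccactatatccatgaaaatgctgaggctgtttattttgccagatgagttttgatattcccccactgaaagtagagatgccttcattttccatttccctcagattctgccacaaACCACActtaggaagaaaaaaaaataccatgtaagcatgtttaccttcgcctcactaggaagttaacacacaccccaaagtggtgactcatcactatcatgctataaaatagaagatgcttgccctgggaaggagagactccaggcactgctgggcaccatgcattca

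Along osteocalcin within these osteoblast-like cells, Sp7 was higher and Runx1 and Runx2 were lower in the top bin than in the bin before it. In 5 bins by the summed CPM of Bglap and Bglap2 per cell, Sp7 was at 62.7, 73.5, 82.6, 93.1 and 109 CPM from the lowest to the highest bin. Runx3 was at 32.7, 29.1, 39.9, 22.0 and 29.7 CPM, with no steady order. Runx1 was at 264, 270, 301, 261 and 198.5 CPM and Runx2 at 170.5, 192, 178, 198.5 and 143 CPM. Cells of the first bin had no osteocalcin UMI, and cells without one also fell in the second bin. The intervals of the first and last bins did not overlap for Runx1 (244 to 285 and 185 to 213) and Sp7 (53.4 to 73.1 and 99 to 120) and overlapped slightly for Runx2 (155 to 187 and 132 to 156). The top bin also had the deepest cells, with a median of 19873 UMIs against 11941.5 in the first. The part of depth, or of a shift of all genes, in these levels was not tested.

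HC-like cells were compared with pre-HC-like cells (clusters 6 and 16). Runx3 was at 43.5 against 150 CPM (log2 ratio -1.76, -1.99 to -1.53) and Runx2 at 89.8 against 145 CPM (-0.68, -0.85 to -0.51). Sp7 was at 29.9 against 39.2 CPM (-0.38), Runx1 at 139 against 123 CPM (0.17) and Cbfb at 53.8 against 51.2 CPM (0.07, -0.16 to 0.30). So 1 of 5 was at least 2-fold lower, against 6.60% of 5921 genes, and none was higher, against 22.0%. The median log2 ratio of all genes was 0.44, which places Runx2, Runx3 and Sp7 below it by over 0.8. When cells marked by Scrublet were left out before clustering, HC-like cells had 19.3 CPM of Sp7, 69.4 CPM of Runx2 and 110 CPM of Runx1. With at most 5% mitochondrial UMIs they had 16.9 CPM of Sp7, 62.6 CPM of Runx2 and 89.7 CPM of Runx1. The pre-HC-like levels of Runx1, Runx3 and Cbfb were below their counting interval in all 8 other settings with that class. They ran from 90.8 to 112 CPM for Runx1, 127 to 143 CPM for Runx3 and 38.3 to 47.0 CPM for Cbfb. Those of Runx2 ran from 123 to 141 CPM and those of Sp7 from 40.3 to 42.4 CPM.

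Around them, Twist1 was at 27.9 against 2.55 CPM, Sox9 at 261 against 1225 CPM and Hivep3, which promotes RUNX2 degradation, at 42.6 against 166 CPM. Aes was again higher, at 31.4 against 3.76 CPM, as was the ligase gene Smurf1 at 23.9 against 6.99 CPM. Dlx5 and Dlx3 were lower, at 12.9 against 29.2 CPM and 9.79 against 21.3 CPM. Of 15 measured skeletal targets 10 were higher and 1 lower, with Ibsp (bone sialoprotein) at 3997 against 118 CPM, and Mmp13, Spp1 and Col10a1, which named the HC-like class, also higher. Only 4 of the 15 were no class markers, and all 4 were higher. Over all genes 22.0% were at least 2-fold higher and 6.60% lower. Here too a gene could enter the count through the side where it was high, so these counts are not read as a result.

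Along Col10a1 UMIs in the 1935 chondrogenic cells the order was similar. In cells with 0, 1 to 9, 10 to 92 and 101 to 1238 Col10a1 UMIs, Runx3 was at 127, 138, 100.4 and 71.8 CPM. Runx2 was at 132.5, 132, 142 and 87.5 CPM and Sp7 at 27.6, 34.4, 44.8 and 24.4 CPM. Runx3 was thus already lower in the third group, where Runx2 and Sp7 had their highest value, and all 3 were low in the last. Runx1 was at 110, 114, 131 and 119 CPM. The groups held 1318, 418, 89 and 110 cells, with median depths of 20606.5 to 36509.5 UMIs.

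**Figure D3:**
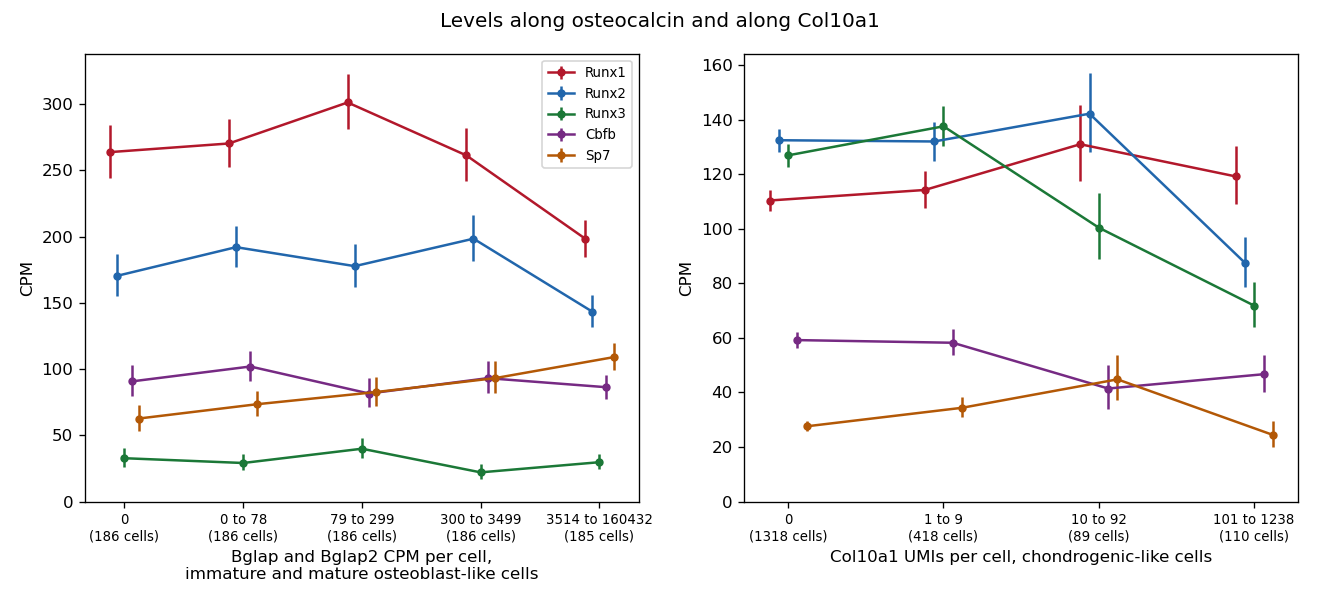
CPM of the 5 genes (y axes) in cells ordered by osteocalcin CPM (left, immature and mature osteoblast-like cells) and by Col10a1 UMIs (right, chondrogenic cells), with the range and number of cells under each bin and exact Poisson 95% intervals. Sp7 goes from 62.7 to 109 CPM along osteocalcin, and Runx3 from 127 to 71.8 CPM along Col10a1.

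Between pooled osteogenic cells of either origin, the intervals of all 5 ratios held 0. In 283 HC-derived and 896 other osteogenic cells, Runx1 was at 301 and 309 CPM (log2 ratio -0.04, -0.12 to 0.05), Runx2 at 162 and 169 CPM (-0.06, -0.17 to 0.06), Runx3 at 29.0 and 32.4 CPM (-0.16, -0.42 to 0.11), Cbfb at 84.8 and 86.9 CPM (-0.04, -0.19 to 0.12) and Sp7 at 75.8 and 78.6 CPM (-0.05, -0.22 to 0.11). None of the 5 passed 2-fold, against 0.610% of 5739 genes higher and 1.13% lower. A ratio inside its interval does not show that the levels were equal.

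The Sp7 value depended on class and cutoff. HC-derived cells were 33.4% of mature osteoblast-like, 20.5% of immature osteoblast-like and 17.2% of marrow stromal progenitor-like cells, so the pools differ in makeup. Within marrow stromal progenitor-like cells Sp7 was at 17.9 CPM (10 UMIs in 43 cells) against 41.8 CPM (log2 ratio -1.18, -2.07 to -0.29). Within immature and mature osteoblast-like cells it was at 60.7 against 70.3 CPM and 96.8 against 105 CPM, with intervals that held 0. The mean of the ratios within the 3 classes was -0.50 (-0.82 to -0.18), whereas calling cells by at least 1 WPRE UMI gave 0.33 (0.18 to 0.49). Such a UMI was also found in 326 of 740 endothelial and 483 of 2130 myeloid cells, so this call does not mark HC origin alone. At the main cutoff 87 HC-like cells counted as HC-derived and 16 did not, so the other pool can hold HC-derived cells. Keeping only cells with at most 5% mitochondrial UMIs gave 0.38 (0.17 to 0.60), and the direction of the Sp7 ratio was not settled. Runx1 within immature osteoblast-like cells was at 351 against 302 CPM (0.21, 0.08 to 0.35), and Runx3 at 28.9 against 39.6 CPM (-0.44, -0.87 to -0.01).

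Some other genes differed between these pools, and their levels within classes are not given. Of 17 measured skeletal targets 2 were at least 2-fold higher in HC-derived cells and 2 lower. Over all genes the shares were 0.610% and 1.13%. Bglap was at 1830 CPM in HC-derived and 6589 CPM in other osteogenic cells and Ibsp at 7183 and 2845 CPM. The homeobox genes Dlx6 (8.22 and 22.4 CPM) and Dlx5 (22.5 and 40.9 CPM) were lower in HC-derived cells, Dlx6 past 2-fold. Dlx6 reached 20 CPM in the other cells only. The part of pool makeup in these values was not tested. No corepressor, antagonist, coactivator, ligase, other SP gene or RUNX1 blood gene passed 2-fold, with Hey1 at 26.8 and 41.0 CPM and Ebf1 at 225 and 331 CPM among the nearest.

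The last comparison set 2894 myeloid and lymphoid cells, called leukocyte-like, against 3114 chondrogenic and osteogenic cells. Sp7 was at 1.99 against 43.5 CPM (log2 ratio -3.89, -4.11 to -3.68) and Runx2 at 28.2 against 140 CPM (-2.27, -2.35 to -2.18). Runx3 was at 57.6 against 96.7 CPM (-0.74, -0.81 to -0.67), Runx1 at 135 against 168 CPM (-0.32, -0.37 to -0.27) and Cbfb at 80.5 against 65.2 CPM (0.30, 0.24 to 0.37). So Runx1, the blood factor of the family, was not higher in leukocyte-like cells than in the pooled chondrogenic and osteogenic cells. By lineage it was at 113 CPM in chondrogenic, 130 CPM in myeloid, 151 CPM in lymphoid and 307 CPM in osteogenic cells. Of 5 genes 2 were at least 2-fold lower, against 20.1% of 6746 genes, and none was higher, against 25.2%, with a median of 0.31 over all genes. As a mean over cells the Runx3 ratio was -0.34, and with at most 5% mitochondrial UMIs the Runx1 ratio was -0.13.

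In the same comparison all 12 measured genes of the RUNX1 blood list were at least 2-fold higher in leukocyte-like cells, 10 of them no class markers. Spi1, which encodes the myeloid factor PU.1, was at 284 against 3.69 CPM and Csf1r, its target in macrophages, at 120 against 2.19 CPM. All 18 measured skeletal targets were at least 2-fold lower, as were 4 of 5 antagonists, with Sox9 at 27.6 against 776 CPM. Only 5 of the 18 targets were no class markers. Over all genes 25.2% were at least 2-fold higher and 20.1% lower. A gene entered by reaching 20 CPM in either group, and Spi1 and Csf1r did so only in leukocyte-like cells. The counts of blood genes and of skeletal targets lean on this filter and are not read as support. Of the corepressors 4 of 8 were higher, such as Sin3a (39.6 against 9.34 CPM) and Cbfa2t3 (23.5 against 6.11 CPM), a member of the ETO family. The coactivators split, with Wwtr1 at 7.74 against 146 CPM and Cebpb at 686 against 269 CPM, and of the other SP genes Sp3 (77.8 against 34.1 CPM) and Sp2 (22.4 against 10.4 CPM) were higher.

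**Figure D4:**
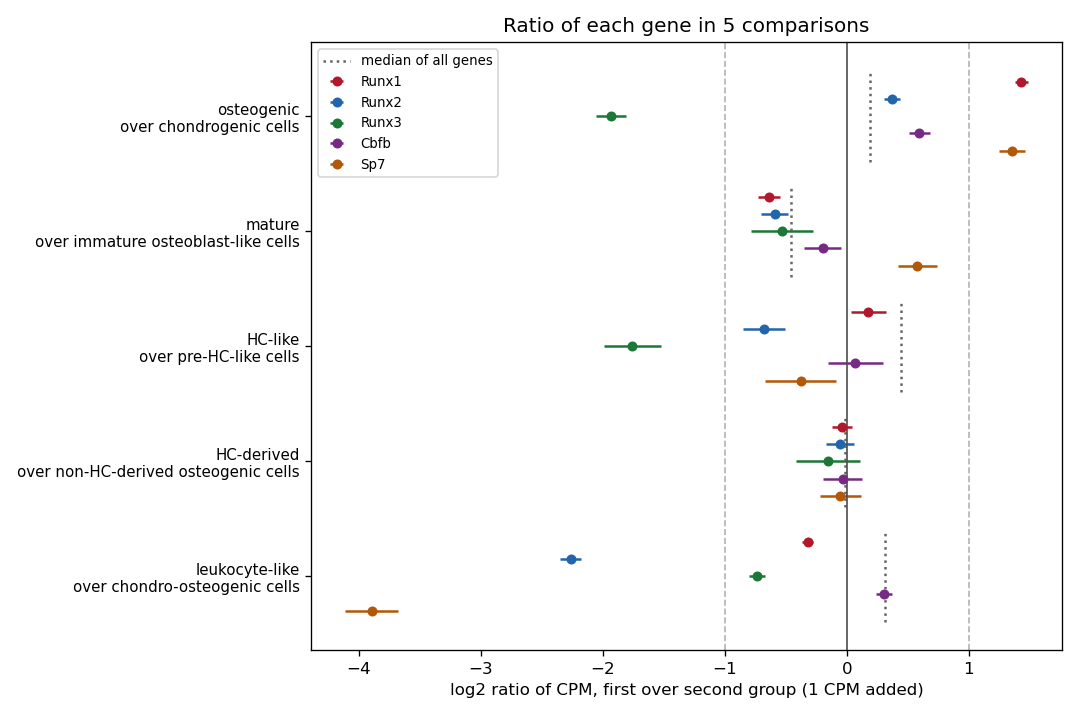
Log2 ratio of CPM (x axis, 1 CPM added) for the 5 genes in 5 comparisons, with intervals that cover counting error only; dashed lines mark 2-fold and dotted lines the median of all genes. Runx3 lies at -1.93 in osteogenic over chondrogenic and -1.76 in HC-like over pre-HC-like cells, and all 5 genes lie near 0 between HC-derived and other osteogenic cells.

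Joint detection was read in cells thinned to 5000 UMIs. In 1160 osteogenic cells, 37.2% had a UMI of both Runx1 and Runx2, where the product of the single shares was 36.1%. Runx2 and Sp7 were both found in 15.4% (product 14.05%), and Sp7 in 29.6% of cells with and 24.1% of cells without a Runx2 UMI. Within classes these Sp7 shares were 26.2% and 24.1% in immature and 39.2% and 32.0% in mature osteoblast-like cells. In marrow stromal progenitor-like cells they were 23.0% and 12.2%. In 1930 chondrogenic cells Runx2 and Runx3 were both found in 19.3% (product 17.8%), and Runx3 in 44.0% of cells with and 38.0% of cells without Runx2. Within classes these Runx3 shares were 38.2% and 37.6% in maturing, 55.7% and 50% in pre-HC-like and 59.7% and 48.4% in proliferating cells. They were 11.8% and 12% in resting and 16.7% and 20.9% in HC-like cells. Both pools join classes with different levels, and the part of this in the pooled shares was not tested. In 103 HC-like cells Runx2 was found in 54.5% of the 44 cells with and 20.3% of the cells without a Runx1 UMI. These shares were 51.4% and 51.0% in pre-HC-like, 43.2% and 44.8% in maturing chondrocyte-like and 57.2% and 57.2% in immature osteoblast-like cells. They were 55.3% and 40.6% in mature osteoblast-like and 23.5% and 10.8% in resting chondrocyte-like cells. In 269 fibroblast or tendon-like cells, which join 2 clusters with different levels, Runx2 and Runx3 were both found in 7.06% (product 2.96%). Cells of 1 library are not replicates.

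Across the 23 classes, the levels of Runx2 and Sp7 were the most alike of the 10 pairs (Pearson r of log levels 0.76), followed by Runx1 and Runx2 (0.59) and Runx2 and Runx3 (0.53), and those of Cbfb and Sp7 the least (0.10). These values are descriptive, since classes share 1 library and range from 13 to 1033 cells. Of 7263 genes, the 5 most like Runx2 were Fam46a (0.85), Vdr (0.83), Ier2, Rgs3 and P4hb, where Vdr is the vitamin D receptor. Those most like Sp7 were Slc38a4 (0.93), Fat3 (0.93), Gprc5c, Pth1r (0.90) and Wisp1, where Pth1r is the receptor of parathyroid hormone. Those most like Runx1 were Tnfsf11 (0.74), Borcs7, Rsrc1, Ppfibp2 and the corepressor gene Tle2 (0.70). Those most like Runx3 were H2-DMa (0.80), Ddx49, P2rx4, Ppif and H2-DMb1 (0.77), where the H2-DM genes serve peptide loading of MHC class II. Those most like Cbfb were Cers5 (0.91), Elovl5, Smad4 (0.87), Appl1 and Srpk2.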

How the data were processed

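The P6 single-cell library was used here. The adult (P56) sample was not analysed. The authors deposited UMI counts per gene and barcode, without normalization, for 14181 barcodes (158281984 UMIs, 500 to 85279 per barcode). The submitters' notes name Cell Ranger 3.1.0, mm10 and Seurat 3, and which annotation release was counted was not given in the sources used here. GENCODE M21 held 30934 of the 31053 identifiers.

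Barcodes entered with 1600 genes or more, no more than 10% mitochondrial and no more than 50% ribosomal protein UMIs. Counts were scaled to 10000 per cell and clustered (Leiden, resolution 1, 20 neighbours, 30 components, 1957 variable genes) without the 5 genes, the 9 gene lists and the reporter. Scrublet marked 588 barcodes (4.15%), of which 460 passed the filters and stayed in. Versions were Python 3.11.15 and scanpy 1.11.5, with numpy 2.4.6, scipy 1.17.1 and matplotlib 3.10.9, and the seed was 1.

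Classes were named from 31 marker lists, by the share of each list among a cluster's top 50 genes by fold (10 CPM added), with 3 or more markers at 10 CPM. Col2a1 (5000 CPM or more, and above Col1a1) gated chondrogenic names, Col1a1 above Col2a1 osteogenic names, and Ptprc (50 CPM or more) leukocyte names. This rule was set after the clusters had been seen, and the members and lists were chosen with earlier results of these data known.

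Log2 ratios have 1 CPM added and were taken for genes reaching 20 CPM on one side. A gene could thus enter a comparison through the side where it is high, and counts past 2-fold lean on this filter. Shares of cells were compared after thinning to 5000 UMIs, leaving out shallower cells (13 of 546 immature osteoblast-like, 79 of 740 endothelial-like and 10 of 30 T or NK-like cells, for example). For 0 counts the limit was 3 counts. Named genes were the 5 members, up to 4 genes of each list with the largest ratio in a comparison, and the 5 genes most like each member among those reaching 50 CPM in a class. Genes that check a cell type and the RUNX3 lymphoid genes were named beside them. The lists held RUNX corepressors, RUNX2 antagonists, coactivators and partners, osteogenic factors, RUNX2 ubiquitin ligases and modifiers, other SP genes, skeletal targets, RUNX1 blood genes and RUNX3 lymphoid genes. One gene of the osteogenic factor list is not reported here. The count code was tested on simulated data.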

Additional observations from a re-analysis of the deposited data

How the results depend on the processing

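With 1 library no replicate could be left out. No paired analysis was possible because the 4 sequencing entries are 1 library counted together. Of the 7 ratios recomputed in each setting, those whose interval left out 0 kept their sign, but the HC-derived over non-HC-derived ratios of Runx2 and Sp7, whose intervals held 0, did in some settings. Of 83 recomputed comparison values 61 stayed within the counting interval, and of 420 recomputed class levels 278 did. With at most 5% mitochondrial UMIs, the osteogenic over chondrogenic log2 ratio was 0.83 for Cbfb, 0.10 for Runx2 and 1.10 for Sp7. In the same cells the leukocyte-like over chondro-osteogenic ratio was -0.13 for Runx1 and -1.03 for Runx3, and the HC-derived over non-HC-derived ratio 0.091 for Runx2 and 0.38 for Sp7. In counts thinned to 5000 UMIs these ratios were 0.50 (Cbfb) and 0.46 (Runx2), -0.41 (Runx1) and -0.39 (Runx3), and -0.19 (Runx2) and -0.30 (Sp7). As a mean over cells Runx2 had 0.49, Runx1 -0.44 and Runx3 -0.34. Without cells marked by Scrublet Runx2 had 0.44 and Runx3 -0.81. Cbfb had 0.76 with at least 2000 genes per cell, and Runx3 -0.63 at resolution 0.6. For Sp7 between origins, at least 1 WPRE UMI, a call that many endothelial and myeloid cells also met, gave 0.33 and the mean within classes -0.50. The causes were not tested. With at most 5% mitochondrial UMIs the immature osteoblast-like name went to a cluster of 132 cells with 9.80 CPM of Sp7 and 81.9 CPM of Runx2. The mature over immature difference of Runx1 and Runx2 then had the other direction. No cluster took the fibroblast or tendon-like name in that setting, and whether the 132 cells are of the same kind as the main immature class was not tested. They were also part of the osteogenic pool of that setting. At resolution 0.6 and with 3000 variable genes no cluster took the immature osteoblast-like name. The Runx1 level of marrow stromal progenitor-like cells ran from 361 to 908 CPM, while from 63 to 747 cells took that name. Osteoclast-like over macrophage-like cells, planned as a comparison, separated at resolution 1.5 and when cells marked by Scrublet were left out (166 and 249 cells), and in no other setting.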
